A study of Mus musculus with 8 samples.

Results

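The vascular transcripts described here are 37 genes of the 24516 in the deposited count table, taken by their symbols from a list of markers of the vessel wall. They comprise 25 endothelial genes, 2 endocardial genes (Npr3 and Emcn), 2 genes enriched in capillary endothelium (Fabp4 and Aqp1) and 8 genes of mural cells, the pericytes and smooth muscle cells that wrap vessels. Of the 37 genes, 29 had at least 1 count, 8 were at 0 in every library, and 18 had enough counts to be tested. The genes were chosen with earlier results of these data known.

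Endothelial cells line all blood vessels, and the endocardium is the endothelium of the heart chambers. Signalling through the vascular endothelial growth factor (VEGF) receptors Kdr and Flt1 and through the angiopoietin receptor pair Tek and Tie1 controls the growth and stability of vessels, and the cadherin Cdh5 seals the junctions between endothelial cells. Mural cells are recruited by endothelial PDGF-B acting on Pdgfrb and carry a contractile apparatus that includes Acta2, Tagln and Mylk. In a preparation of sorted macrophages these genes serve mainly as markers of other cells of the heart, although some of them, such as Fabp4, are also known from macrophages.

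Heart macrophages of C57BL/6 mice were taken at postnatal day 28 and isolated by FACS. Both groups shared the genotype Nfatc1Cre/+; Rosa26Tomato reporter/+, in which Nfatc1, whose product regulates transcription in endocardium, drives Cre and thereby marks endocardial cells and their descendants. The labels put 4 libraries in the endocardially derived group (EcTM: E591, E592, E604, E606) and 4 in the group with no such origin (non-EcTM: N591, N592, N604, N606). The labels do not describe the sort gates. Libraries that share a number were treated as pairs (E591/N591 and so on). What the number stands for is not stated, and the p-values measure only the spread between these libraries, which may be technical. Counts in genes ran from 2152425 to 2937464 per library, so a count of 0 still allows a level of 1.02 to 1.39 CPM, the depth-scaled count of a gene, in a single library, a limit that covers counting error only.

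Upstream sequences are shown for Kdr and Flt1, the tested VEGF receptor genes, and for Mylk, the mural gene with the most even difference between the groups. Each run covers bases 250 to 31 before a RefSeq start on GRCm38.p6, on the strand of the gene, and capitals mark the ETS core GGAAG or its reverse complement CTTCC. The Kdr window lies at chr5:75978486-75978705 on the minus strand, the Flt1 window at chr5:147726042-147726261 on the minus strand, and the Mylk window at chr16:34784700-34784919 on the plus strand. Each lies at a start inside the span of its gene.
Kdr: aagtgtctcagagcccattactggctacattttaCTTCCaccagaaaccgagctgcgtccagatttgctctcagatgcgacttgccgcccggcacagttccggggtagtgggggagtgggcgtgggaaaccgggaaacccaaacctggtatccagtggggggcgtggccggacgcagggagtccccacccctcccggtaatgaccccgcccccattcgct
Flt1: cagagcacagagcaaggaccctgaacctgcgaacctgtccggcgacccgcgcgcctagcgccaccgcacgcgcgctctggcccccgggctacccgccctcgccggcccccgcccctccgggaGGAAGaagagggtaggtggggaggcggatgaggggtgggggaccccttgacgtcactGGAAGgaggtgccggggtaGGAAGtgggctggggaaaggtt
Mylk: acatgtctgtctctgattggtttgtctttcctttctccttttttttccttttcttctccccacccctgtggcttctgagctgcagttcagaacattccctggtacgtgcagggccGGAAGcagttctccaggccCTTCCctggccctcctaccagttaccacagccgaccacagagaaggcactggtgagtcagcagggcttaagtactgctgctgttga

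ETS family proteins, Erg among them, act in endothelial gene expression, and the CArG box is bound by serum response factor in smooth muscle genes. RefSeq promoters were found for 24 of the 37 genes, with 32 windows of 220 bases. The ETS core stood in 13 of 22 endothelial windows (59.1%) and in 58.6% of all 32851 windows of this length, a share close to the other. The core stood in 2 of 7 mural windows. The CArG box, searched by its strict consensus on both strands, matched 0 of the 7 mural windows and 1.3% of all windows. The Acta2 window holds a run that departs from this consensus by a single base, and Tagln had no window. The value of 0 therefore does not show that mural promoters lack the element. These letter matches are descriptions and not binding sites.

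Macrophage markers far exceeded those of other cell types in every library. The 10 macrophage markers of this check, among them Csf1r, Lyz2, Adgre1 and C1qa, summed to 17030 to 18450 CPM across EcTM and 16400 to 17440 CPM in non-EcTM. Of these 10, 9 had counts and Itgam, which has 2 curated transcripts, was at 0. Ptprc, which has 3, had only 10.2 to 29.4 CPM over the 8 libraries. The 37 vascular genes together took 0.0284% to 0.305% of all counts. In the 20 members with 1 curated transcript, the median level over the 8 libraries, per kilobase of exon, was highest for Aqp1 at 18.2 CPM per kb, followed by Acta2 at 9.94, Cdh5 at 7.63 and Hspg2 at 6.11 CPM per kb, and it was lowest for Cspg4 at 0.119 CPM per kb.

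A value of 0 in this table does not by itself show that a transcript was absent. The members at 0 in all 8 libraries were the endocardial markers Npr3 and Emcn, the receptor genes Tek and Robo4, the junction gene Esam, the transcription factor genes Erg and Sox17, and the pericyte receptor gene Pdgfrb. All 8 have at least 2 curated RefSeq transcripts: among members with 1 such transcript 0 of 20 were at 0, and among those with 2 or more 8 of 17 were. Over all genes, silent ones included, the share at 0 was 42.5% with 1 curated transcript, 40.6% with 2 and 38.6% with 3 or more. Among genes of ribosomal proteins, most of them broadly expressed, 3 of 60 with 1 transcript and 4 of 21 with more were at 0. The median total count was 377 against 19, and why these counts differ was not tested. The endothelial adhesion gene Pecam1, with 4 curated transcripts, and the Cre-bearing gene Nfatc1, with 6, were also listed at 0 in every library. Npr3 and Emcn therefore could not be compared between the groups. Of the members with counts, Kdr, Flt1, Adgrf5, Ptrf, Rgs5, Cav1, Eng, Egfl7 and Plcb4 have 2 or more curated transcripts, so levels per length are given only for the others, while the class sums and the mural share add genes of both kinds.

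Vascular transcripts were concentrated in N591. Within EcTM, endothelial and capillary transcripts were highest in E591, whereas mural transcripts were more even. N591 held 44.6% of the 17329 counts in members and was the highest of the 8 libraries for 26 of the 29 members with a count, where it was the highest for 13.9% of all 7667 genes tested. The exceptions were Egfl7 and Sox18, highest in E591, and Acta2, highest in N604. E591 was in turn the highest EcTM library for 15 of 19 endothelial members and 3 of 7 mural members with a count in EcTM, where it was so for 25.3% of all genes tested. E592 was the highest EcTM library for 3 of 7 mural members as well. Among the 3 other non-EcTM libraries, N604 was the highest for 6 of 7 mural members and 10 of 19 endothelial members, where it was so for 35.3% of all genes tested.

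The summed level of the 25 endothelial members was 959, 166, 149 and 453 CPM in E591, E592, E604 and E606, and 2255, 217, 402 and 348 CPM in N591, N592, N604 and N606. The group means were 432 ± 378 (SD, n = 4) and 806 ± 970 CPM, and without N591 the non-EcTM mean was 322 ± 95.3 CPM. The groups overlapped. E591, E592 and E604 had 0.425, 0.765 and 0.372 of the level of their partners, and E606 lay above N606. In bulk samples, fewer cells of a type and less RNA per cell cannot be told apart.

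**Figure D1:**
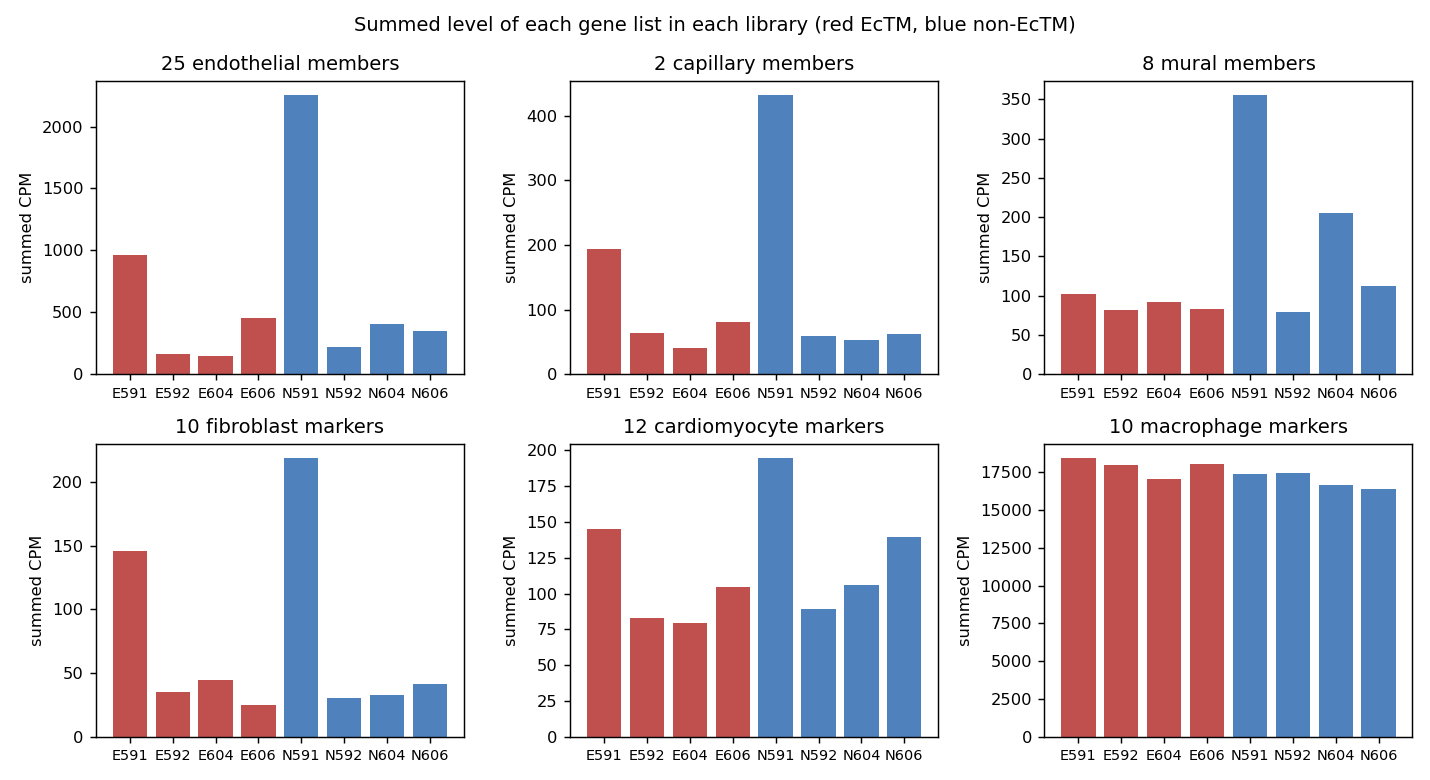
Summed normalised level (CPM, linear axis from 0) of each gene list in each library, with EcTM in red and non-EcTM in blue. N591 is the highest library for the endothelial, capillary, mural, fibroblast and cardiomyocyte lists, and the macrophage markers lie between 16400 and 18450 CPM in all 8 libraries.

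Markers of fibroblasts and cardiomyocytes were also highest in N591. In the other pairs the summed fibroblast markers went opposite to the endothelial members, at low counts and with single markers divided. Summed cardiomyocyte markers did so only in E606/N606. The 10 fibroblast markers, of which Pdgfra was at 0 and 9 had counts, summed to 25.1 to 146 CPM across EcTM and 30.3 to 219 CPM in non-EcTM, with N591 highest and E591 next. E591 and E606 had 0.665 and 0.608 of the fibroblast level of their partners, and E592 and E604 had 1.17 and 1.36 times it. In 3 of 4 pairs the direction of this sum was thus opposite to that of the endothelial sum. The raw sums were small, with 80 counts in E592 and 78 in N592, and 103 in E604 and 76 in N604. Single markers were divided: Col1a2 was higher in EcTM in E592/N592 and E604/N604, and Dpt was lower in both. The 12 cardiomyocyte markers, of which Myh6 and Tnnt2 were at 0, summed to 79.3 to 145 CPM across EcTM and 89 to 195 CPM in non-EcTM, and EcTM had 0.745 to 0.932 of the level of its partner in the 4 pairs. The 10 blood cell markers had 441 to 562 CPM across EcTM and 478 to 605 CPM in non-EcTM, nearly all of it Pf4, with Hba-a1, Hbb-bs, Alas2 and S100a9 at 0, and N591 was the lowest non-EcTM library. Group means in EcTM and non-EcTM were only 6.71 and 7.03 CPM for Ppbp, and 1.77 and 2.99 CPM for Itga2b. The sum thus mainly gives the level of Pf4 and not that of blood cells. The part of other heart cells in the vascular values was not tested.

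The comparison of EcTM with non-EcTM asked whether vascular transcripts differed between macrophages of the 2 origins. In the edgeR quasi-likelihood fit with the number as a block, 17 of the 18 tested members had a log2 fold change below 0, that is toward lower values in EcTM, as did 51.5% of all genes tested. None of the 18 passed an adjusted p of 0.05, a threshold that 0.013% of all genes passed, and the smallest adjusted p was 0.277, for Lama4. At an unadjusted p under 0.05, 9 members lay lower in EcTM and 0 higher, beside 2.63% of all genes lower and 2.77% higher. In 4 of 4 pairs 4 members were lower and 0 higher, beside 6.83% and 7.34% of all genes. The median log2 fold change was -0.99 for 11 endothelial, -0.36 for 2 capillary and -0.69 for 5 mural members, beside -0.01 for all genes. The 18 tested members exclude the 8 genes at 0 and 11 genes with 14 to 222 counts in all, and a gene can pass the filter through the group in which it is high. The members were chosen with earlier results of these data known. N591 was the highest library for 16 of the 18, so the members are not independent of each other. Their shares beside those of all genes are descriptions and no independent evidence.

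The pairs were not alike. All 18 tested members had a lower level in E604 than in N604, and 17 of 18 had a lower level in E591 than in N591. E592 was the lower library for 11 of 18 and E606 for 7 of 18. The median pair log2 ratios over the tested members were -1.40 for E591/N591, -0.57 for E592/N592, -1.73 for E604/N604 and 0.46 for E606/N606. For 14 of the 18 genes the standard error of the mean of the 4 pair ratios was larger than that of the fit, which takes part of its spread from other genes and gives more weight to pairs with more counts.

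The calls depended on the tool and on single libraries. Paired limma-voom called 3 members, Ptprb, Adgrf5 and Ptrf, all lower in EcTM at adjusted p-values of 0.0294, 0.029 and 0.0294, among 0.248% of all genes. The paired edgeR fit called Ptprb when E606/N606 was left out (adjusted p 0.0158), beside 0.0262% of all genes. Without a filter on low counts it called Kdr, Ptprb and Adgrf5 at adjusted p-values of 0.013, 0.0354 and 0.0354, beside 0.0698% of all genes. Paired DESeq2 called 0 of the 12 members to which it gave an adjusted p and 0.393% of all such genes. It gave none to the other 6, Tie1, Adgrl4, Lama4, Sox18, Tagln and Notch3, among which Lama4 had an unadjusted p of 7.44e-06. The unpaired edgeR fit called 0 members and 0% of all genes. When N591 alone was left out of the unpaired fit, 11 of the 18 members had a log2 fold change above 0 and the median endothelial value became 0.21.

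**Figure D2:**
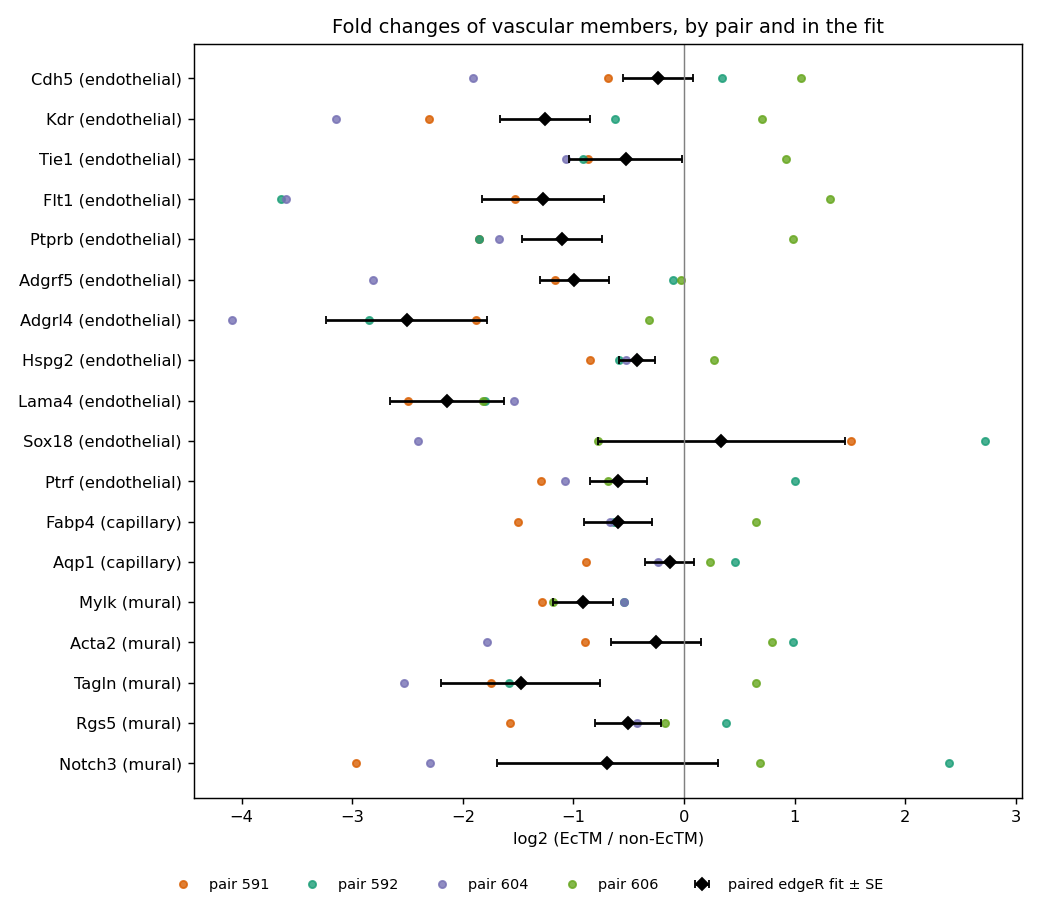
Log2 ratios of EcTM to non-EcTM for the 18 tested members. Coloured points are the 4 pairs and black diamonds the paired edgeR fit ± SE. E606/N606 lies above 0 for 11 genes and E604/N604 below 0 for all 18, while all 4 pairs of Adgrf5, Adgrl4, Lama4 and Mylk lie below 0.

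Among the endothelial receptors, Kdr, the main signalling receptor for VEGF-A, had 38.3, 20.9, 3.92 and 57.7 CPM in E591, E592, E604 and E606. The values were 192, 32.7, 41.1 and 35.1 CPM in N591, N592, N604 and N606. N591 stood far above the other 7 libraries, which overlapped between the groups, and E606 lay above 3 of the non-EcTM libraries. The edgeR estimate was -1.26 ± 0.41 (SE) on the log2 scale, at an adjusted p of 0.697, with pair ratios from -3.15 to 0.71. It was -0.83 without E591/N591 and -0.26 in the unpaired fit without N591. Kdr lies on chromosome 5 from 75932827 to 75979072 (GRCm38).

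Flt1, which binds VEGF with high affinity and acts largely as a decoy, was near 0 in part of the EcTM libraries. Its raw counts were 137, 0, 1 and 120 in the EcTM libraries (E591, E592, E604, E606) and 478, 24, 33 and 56 in N591, N592, N604 and N606. EcTM thus split into a pair of libraries with over 100 counts and a pair with 0 or 1, whereas all non-EcTM libraries had counts. The paired edgeR fit gave a log2 fold change of -1.28 ± 0.55 (adjusted p 0.897). Flt4, the receptor of lymphatic endothelium, had 8, 0, 0 and 13 counts in EcTM and 48, 9, 7 and 2 counts in non-EcTM in the same order and was too low to be tested.

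Ptprb, the vascular endothelial phosphatase that restrains Tek, had 66.2, 5.33, 12.2 and 49.4 CPM in the EcTM libraries against 242, 21.4, 40.7 and 24.6 CPM in non-EcTM. Its paired edgeR fit gave a log2 fold change of -1.10 ± 0.36 (adjusted p 0.738). E591/N591, E592/N592 and E604/N604 had log2 ratios of -1.86, -1.85 and -1.67, and E606/N606 had 0.99, so 3 pairs were close to each other and 1 went the other way. Tie1, the orphan partner of Tek, had 19.9, 3.55, 7.41 and 12.6 CPM in the EcTM libraries against 37, 7.39, 16.5 and 6.22 CPM in non-EcTM. Its pairs showed the same division, with ratios of -1.07 to -0.87 in 3 pairs and 0.93 in E606/N606.

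The adhesion G protein-coupled receptor genes Adgrf5 and Adgrl4, both rich in microvascular endothelium, were lower in EcTM in 4 of 4 pairs. Adgrf5 had 123, 11.5, 6.1 and 37.7 CPM in the EcTM libraries against 278, 12.4, 47.6 and 38.3 CPM in non-EcTM. In E592/N592 and E606/N606 its libraries differed little, with log2 ratios of -0.10 and -0.03. The paired edgeR value was -0.99 ± 0.31 with an adjusted p of 0.676, and it was 0.44 in the unpaired fit without N591. Adgrl4 had 36, 0, 0 and 7 raw counts in EcTM and 165, 13, 30 and 11 in non-EcTM. Its groups overlapped through E591, and its edgeR estimate was -2.51 ± 0.72 on the log2 scale, at an adjusted p of 0.536. Unpaired, it was -2.14, and it ran from -4.42 without E591 to -0.55 without N591. Without E591/N591 it was too low to be tested.

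Cdh5, the adherens junction cadherin of endothelium, did not follow the receptors in every pair. It had 139, 20.4, 8.28 and 65.1 CPM in the EcTM libraries against 223, 15.9, 33.3 and 30.8 CPM in non-EcTM. EcTM was lower in 2 of 4 pairs, and the edgeR estimate was -0.24 ± 0.32 on the log2 scale, at an adjusted p of 0.976. Without E604/N604 it became 0.19. Cldn5, the tight junction claudin of endothelium, had 3, 0, 0 and 2 counts in EcTM and 23, 1, 3 and 9 in non-EcTM.

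In the basement membrane, the laminin chain gene Lama4 had the smallest p among the members. It had 8.99, 2.22, 3.49 and 3.14 CPM in the EcTM libraries against 54.4, 9.72, 11.7 and 13.1 CPM in non-EcTM, or 19, 5, 8 and 8 raw counts against 138, 25, 27 and 40. The highest EcTM library lay just below the lowest non-EcTM library, so the groups did not overlap, as held for 1.4% of all genes tested in this direction. The edgeR estimate was -2.14 ± 0.51 on the log2 scale, about 0.226 of the non-EcTM level, at an adjusted p of 0.277. The pair ratios lay between -2.49 and -1.54. Without E591/N591 the value was -1.96, and over 18 alternatives it ran from -2.89 to -1.37 and never passed, though DESeq2 gave it no adjusted p. Lama4 lies on chromosome 10 from 38965515 to 39110188.

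Hspg2, which encodes the basement membrane proteoglycan perlecan, was the member with the most counts, 3054 in all. It had 282, 43.9, 54.9 and 116 CPM in the EcTM libraries against 508, 66.5, 79.2 and 95.7 CPM in non-EcTM. The EcTM library was the lower in 3 pairs and the higher in E606/N606. Its paired edgeR fit gave a log2 fold change of -0.43 ± 0.16 (adjusted p 0.863), and it was 0.62 in the unpaired fit without N591.

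Ptrf, the coat protein gene of caveolae, had 117, 47.5, 37.5 and 38.4 CPM in the EcTM libraries against 288, 23.3, 79.7 and 62.6 CPM in non-EcTM. Here the pair that went the other way was E592/N592, with a log2 ratio of 1.0, and not E606/N606. The paired edgeR fit gave a log2 fold change of -0.60 ± 0.26 (adjusted p 0.897), while limma-voom gave -0.90. Cav1, the main caveolar membrane protein gene, had 17, 0, 0 and 14 counts in EcTM and 58, 1, 5 and 3 in non-EcTM. Sox18, a transcription factor gene of vascular development, was the one tested member above 0, with 34, 16, 3 and 4 counts in EcTM and 13, 1, 24 and 10 in non-EcTM. Its paired log2 fold change of 0.34 ± 1.12 was smaller than its error.

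The other endothelial members had few counts. Vwf, which encodes the platelet-binding von Willebrand factor, had 39 counts in EcTM and 130 in non-EcTM, of which 91 were in N591. Ramp2, the adrenomedullin receptor partner, had 56 and 114 of its 203 counts in E591 and N591, and 33.4% of its exon bases overlap Vps25 on the same strand. Nos3, the endothelial nitric oxide synthase gene, had 41 and 69 of its 128 counts in the same libraries. On the opposite strand, 25.2% of its exon bases overlap Gm15587 and 7.1% overlap Atg9b. Plvap, the diaphragm protein gene of fenestrated endothelium, had 30 of 39 counts in N591. Eng, a co-receptor for TGF-beta that activated macrophages also carry, had 16 counts, all in non-EcTM, and Egfl7, a secreted endothelial protein gene, had 14, all in E591. Vwf, Ramp2, Nos3 and Plvap were highest in N591, at counts too low for a test.

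**Figure D3:**
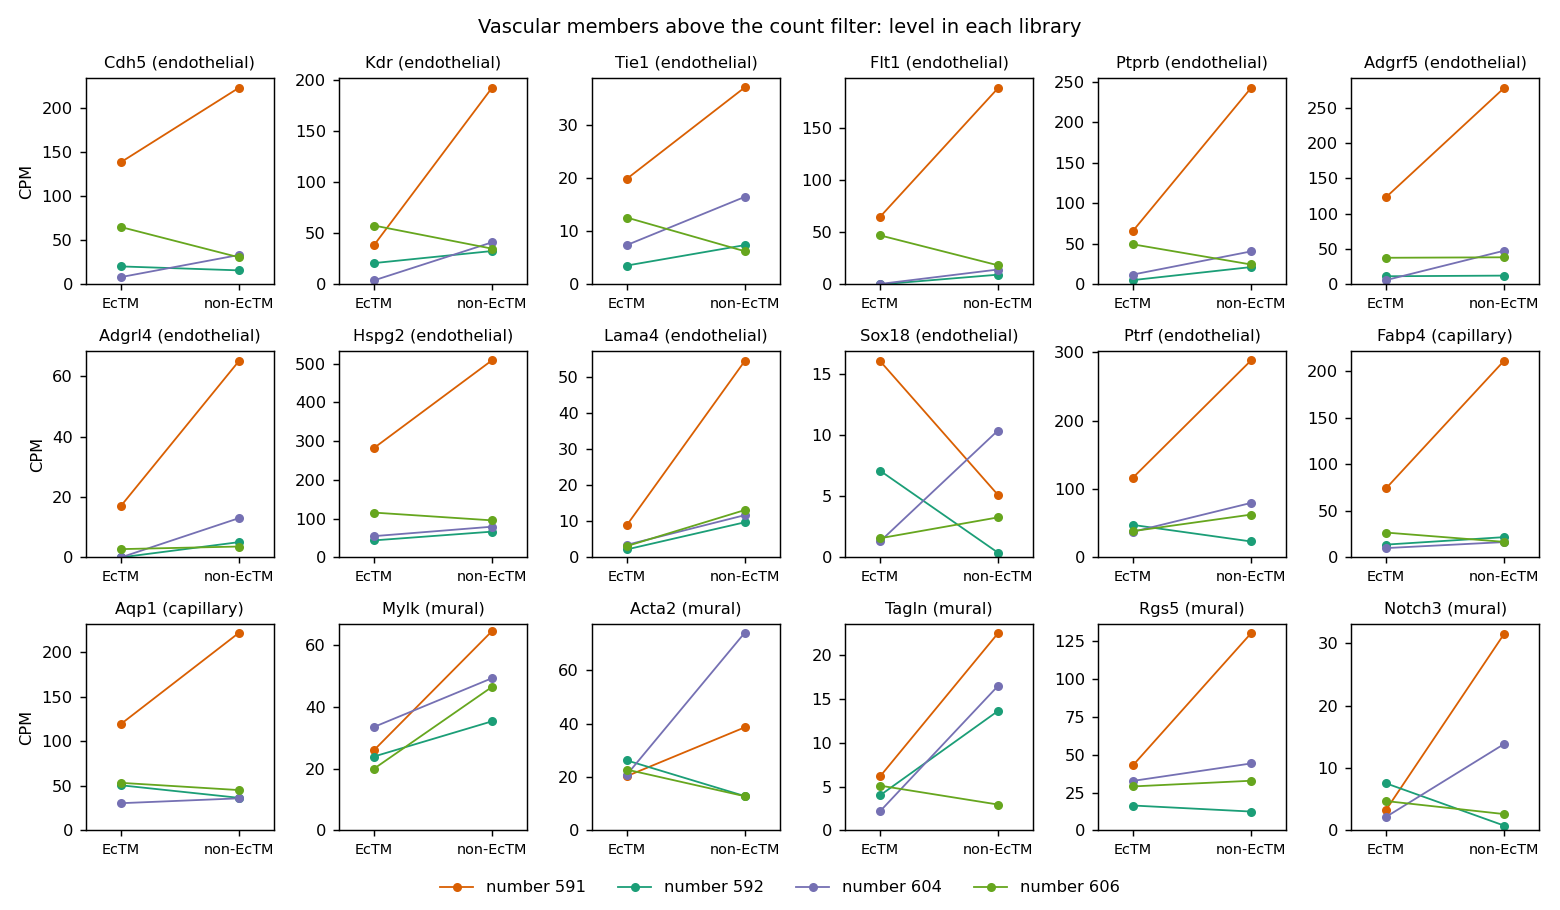
Normalised level (CPM, linear axes from 0) of the 18 tested members in each group, with lines joining the paired libraries. N591 is the highest library for 16 of the 18 genes, Sox18 is highest in E591 and Acta2 in N604.

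The capillary genes stood among the better measured members and had similar mean levels in both groups apart from E591 and N591. Fabp4, a fatty acid binding protein gene of heart capillaries and also of macrophages, had 74.3, 13.8, 10 and 26.7 CPM in the EcTM libraries against 211, 21.8, 16.5 and 16.7 CPM in non-EcTM. Its paired edgeR fit gave a log2 fold change of -0.60 ± 0.30 (adjusted p 0.921), and -0.21 without E591/N591. Aqp1, a water channel gene, had 119, 50.6, 30.5 and 53.3 CPM in the EcTM libraries against 221, 36.5, 35.9 and 45.2 CPM in non-EcTM. Its paired value was -0.13 ± 0.22 with an adjusted p of 0.987, and without E591/N591 it was 0.17. Without N591 the 2 genes together had 57.5 ± 4.81 CPM (SD, n = 3) in non-EcTM. Without E591 their mean in EcTM was 61.6 CPM, from less even values of 64.35, 40.5 and 80 CPM in E592, E604 and E606.

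The mural members were more even in EcTM than the endothelial members. Their summed level was 103, 81.2, 91.5 and 83.5 CPM in E591, E592, E604 and E606, and 356, 79.3, 206 and 112 CPM in N591, N592, N604 and N606. All EcTM libraries lay within 81.2 to 103 CPM, and 3 of 4 non-EcTM libraries lay above that range. The group means were 89.7 ± 9.67 and 188 ± 124 CPM (SD, n = 4).

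Mylk encodes the kinase that activates myosin for smooth muscle contraction. It had 26, 24, 33.6 and 20 CPM in E591, E592, E604 and E606. The values were 64.6, 35.4, 49.4 and 46.5 CPM in N591, N592, N604 and N606. The lowest non-EcTM library lay above the highest EcTM library, as held for 1.4% of all genes tested in this direction. N591 stood much less apart than for the endothelial genes. The edgeR estimate was -0.91 ± 0.27 on the log2 scale, or 0.531 of the non-EcTM level, at an adjusted p of 0.608. The 4 pair ratios lay between -1.29 and -0.55, and over 19 alternatives the value ran from -1.07 to -0.76 with adjusted p-values from 0.0991, in DESeq2, to 1. Mylk lies on chromosome 16 from 34745199 to 35002436, has 1 curated transcript, and shares 4.9% of its exon bases with an antisense transcript. The separation of Lama4 and Mylk was known when the members were chosen and is no independent evidence.

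The other contractile members, Acta2 and Tagln, did not share the even difference of Mylk. Acta2, the smooth muscle actin gene, had 20.3, 26.2, 20.9 and 22.8 CPM in the EcTM libraries against 38.6, 12.8, 74 and 12.8 CPM in non-EcTM. EcTM was uniform at 22.5 ± 2.63 CPM (SD, n = 4), whereas non-EcTM had 2 libraries above it and 2 below. Its paired edgeR fit gave a log2 fold change of -0.26 ± 0.41 (adjusted p 0.984), and 0.30 without E604/N604. Tagln, the actin-binding transgelin gene, had 13, 9, 5 and 13 counts in EcTM and 57, 35, 38 and 9 in non-EcTM. It was lower in EcTM in 3 of 4 pairs (-1.48 ± 0.72, adjusted p 0.914), and 62.4% of its exon bases overlap an antisense gene model.

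Of the pericyte genes, Rgs5, a regulator of G protein signalling, had 43, 16.4, 32.7 and 29 CPM in the EcTM libraries against 130, 12.4, 44.2 and 32.8 CPM in non-EcTM. Apart from E591/N591 its pairs differed by -0.43 to 0.38 on the log2 scale, and the paired value was -0.51 ± 0.30 with an adjusted p of 0.940 in edgeR. Notch3, the Notch receptor of mural cells, had 7, 17, 5 and 12 counts in EcTM and 80, 2, 32 and 8 in non-EcTM, with pair ratios from -2.97 to 2.39. Cspg4, the pericyte proteoglycan NG2 gene, was below the filter but its groups did not overlap, with 0, 2, 0 and 0 counts in EcTM and 14, 5, 12 and 11 in non-EcTM. Plcb4, a phospholipase C gene, had 8, 5, 0 and 5 counts in EcTM and 160, 6, 6 and 32 in non-EcTM. Cspg4 and Plcb4 were lower in EcTM in 4 of 4 pairs, as were the endothelial members Cldn5 and Nos3, and at these counts none of them was tested. For Plcb4 the difference in E592/N592 was only 5 against 6 counts. Among all genes tested, 6.83% were lower in 4 of 4 pairs and 1.4% did not overlap in this direction. These shares leave out genes as low as Cspg4 and Plcb4.

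The balance of mural and other vascular transcripts varied between libraries of both groups, and it was lowest in E591 and N591. Mural genes made up 8.18% of the member counts in E591 (95% Clopper-Pearson interval 7.16 to 9.29) and 11.7% in N591 (11 to 12.4). They made up 26.1% in E592 (22.9 to 29.5) and 22.4% in N592 (19.7 to 25.2), and 32.5% in E604 (28.9 to 36.3) and 31.2% in N604 (28.8 to 33.5). They made up 13.6% in E606 (11.9 to 15.4) and 21.4% in N606 (19.4 to 23.5). The intervals overlapped in E592/N592 and E604/N604 and did not in E591/N591 and E606/N606. Over the members with 1 curated transcript, an alternative chosen after seeing the data, the shares were 29.3% in E604 (25.2 to 33.7) and 37.1% in N604 (34.1 to 40.2), so that these intervals no longer overlapped, and only those of E592/N592 did. These intervals cover counting error only, and no test of the shares was made.

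**Figure D4:**
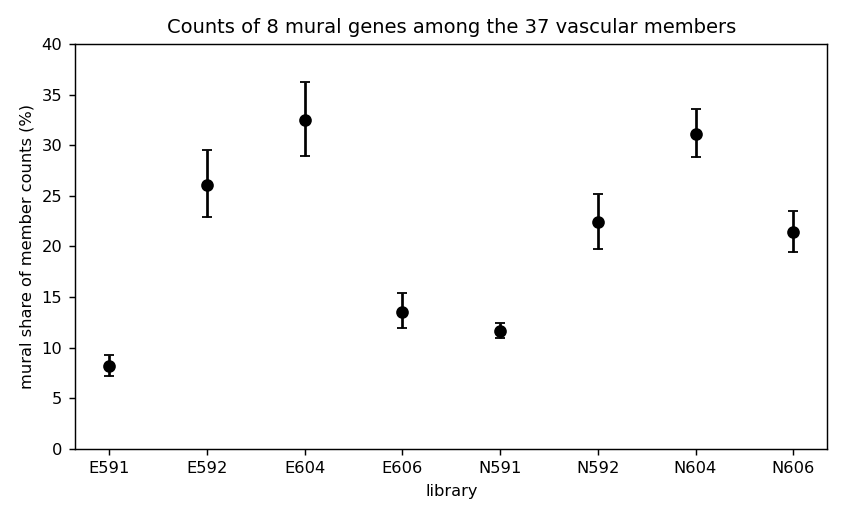
Share of the 8 mural genes in the counts of all 37 vascular genes in each library, in percent, with 95% Clopper-Pearson intervals. With all members counted, E592 and N592, and E604 and N604, have overlapping intervals, and the shares run from 8.18% in E591 to 32.5% in E604.

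Other vascular genes, from lists compiled alongside the members, gave a more mixed picture. Of 32 further endothelial genes 19 were tested, 13 with a log2 fold change below 0 and 6 above, with a median of -0.09, and 0 passed. The 6 above 0 were Plxnd1, Calcrl, Klf2, Thbd, Ets1 and Fli1, at 0.02 to 0.11. The 13 below 0 ran from -1.41 for Sox7 to -0.01 for Vcam1. Some genes of this list, Plxnd1 and Klf2 among them, stood at macrophage levels, so these directions do not describe endothelial transcripts alone. Rasip1, a GTPase effector gene of vessel lumen formation, had 4.72 ± 4.82 CPM in the EcTM libraries against 15.7 ± 21.2 CPM in non-EcTM, and edgeR gave it -1.35 ± 0.63 on the log2 scale (adjusted p 0.907). Mmrn2, an endothelial matrix glycoprotein gene, had -1.39 ± 0.67, Podxl, a sialomucin gene of the vessel lumen, had -0.75 ± 0.42, and the flow-responsive transcription factor gene Klf2, also expressed in macrophages, had 0.09 ± 0.05. Several genes of this list stood at macrophage levels, with group means of 2257 and 2246 CPM for Plxnd1 and 2103 and 2235 CPM for Lyve1, a marker of lymphatic endothelium and of resident macrophages. With Klf2, at 2931 and 2754 CPM, they make up most of the summed level of the list, which was 8266 to 10930 CPM across EcTM and 7895 to 11370 CPM in non-EcTM.

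Of 24 further endocardial, arterial and capillary genes 8 were tested, 4 below 0 and 4 above, and 0 passed. Dll4, the arterial Notch ligand, had 11, 1, 1 and 0 counts in the EcTM libraries (E591, E592, E604, E606) and 46, 16, 13 and 12 in N591, N592, N604 and N606. It was lower in EcTM in 4 of 4 pairs, with a log2 fold change of -3.14 ± 1.03 and an adjusted p of 0.722 in edgeR. The endothelial Notch receptor gene Notch4 had -1.73 ± 0.78, also in 4 of 4 pairs, Rgcc, a cell cycle regulator gene of endothelium, had -0.77 ± 0.57, and the apelin receptor gene Aplnr had 0.16 ± 0.18. Of 19 further mural genes only Des and Anpep were tested, at -0.52 ± 0.51 and 0.09 ± 0.23. Among contractile genes of this list too low to be tested, Myl9 and Lmod1 were lower in EcTM in 4 of 4 pairs. Tpm2 was higher in EcTM in 4 of 4 pairs. Of 15 ligands that act on vessels 4 were tested and 0 passed: Tgfb1 had 475 ± 73.7 CPM in the EcTM libraries against 409 ± 24.7 CPM in non-EcTM, Pdgfb, the ligand of Pdgfrb, had a log2 fold change of 0.31 ± 0.15, Pdgfa had 0.72 ± 0.42, and Angpt2, an antagonist of Tek, had -0.65 ± 0.85. The 4 EcTM libraries of Pdgfb, at 125 to 134 CPM, lay above the 4 of non-EcTM, at 100 to 106 CPM, as held for 1.3% of all genes in this direction.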

How the data were processed

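RNA of 8 sorted macrophage libraries was measured by stranded total RNA sequencing. Per the submitters' processing notes, bcl2fastq 2.17, TopHat, DESeq2, R 3.2 and the build mm10 were used. Which counter, gene models and strand setting followed was not given in the sources used here. Raw counts per gene were deposited by the authors and underlie all results, whereas deposited log2 values under a CPM header were not used. Of 24516 genes 24447 matched the RefSeq table of GRCm38.p6 by Entrez number, which gave coordinates and curated transcripts. Exon lengths came from GENCODE M21.

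The members and gene lists were chosen with earlier results of these data known. Genes were filtered with edgeR's filterByExpr, leaving 7667 genes with 99.3% of counts. EcTM and non-EcTM were compared with edgeR 4.0.16 (quasi-likelihood, TMM, R 4.3.3), with the number as a replicate block and Benjamini-Hochberg adjustment over all genes at a threshold of 0.05. The block was set in the design, and the pairing was then checked in the counts: after removal of group means the correlations of same-numbered libraries across genes were 0.12 to 0.19 in 4 of 4 pairs, over the set minimum of 0.1, and -0.13 to 0.05 otherwise. CPM use TMM factors, and log2 ratios of pairs use a prior count of 2. Alternatives were no block, other scaling and filters, DESeq2 1.42.0, limma-voom (limma 3.58.1), genes with 1 curated transcript, and libraries left out. The fit was tested on simulated data. All tested members are named, with up to 4 genes of smallest unadjusted p from each other vascular list, and genes named beyond these, such as Plxnd1 and Lyve1, were chosen after their values were seen. Figures were drawn with matplotlib 3.10.9.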

Additional observations from a re-analysis of the deposited data

Results flagged for a closer look

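Each of 18 tested members and 3 class sums was checked in both groups. In 12 of the 21 checks within non-EcTM, N591 stood apart from the other 3 libraries by a gap above the critical value of Dixon's 95% test, and in 2 of the 21 within EcTM, E591 stood apart. Chance gives about 1 in 20 such groups, and the members of one library are not independent. In N591 the values were 223 CPM for Cdh5, 192 for Kdr, 188 for Flt1, 242 for Ptprb, 278 for Adgrf5, 65 for Adgrl4, 508 for Hspg2, 54.4 for Lama4, 211 for Fabp4 and 221 for Aqp1. The summed endothelial members reached 2255 CPM and the summed capillary members 432 CPM in N591. In E591 the values were 17 CPM for Adgrl4 and 117 CPM for Ptrf. No tested mural gene was among them. Plcb4 and Cspg4, too low to be tested, were not checked. Plcb4 had 63 CPM in N591 against 2.33, 2.6 and 10.5 CPM in N592, N604 and N606, whereas Cspg4 was more even.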

How the results depend on the processing

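Over the alternatives, 0 members passed except 3 without a filter, 3 in paired limma-voom and 1 without E606/N606 (range 0 to 1 over left-out pairs and libraries). The count of all genes called, 1 with the replicate block, was 0 with no replicate block, 10 without a filter, 17 in DESeq2 (which gave 6 of the 18 members no adjusted p), 19 in limma-voom, 0 among genes with 1 curated transcript and 0 to 2 over left-out pairs and libraries. Class medians ranged over these from -1.46 to 0.21 (endothelial), -1.45 to 0.72 (capillary) and -1.19 to -0.10 (mural). Over the left-out pairs, signs turned for Aqp1 (-0.32 to 0.17, positive without E591/N591), Notch3 (-1.78 to 0.39, positive without E591/N591 and, at 0.18, without E604/N604), Sox18 (-0.67 to 1.4, negative without E592/N592), Cdh5 (-0.74 to 0.19) and Acta2 (-0.68 to 0.30, both positive without E604/N604). Unpaired without N591 they turned for Cdh5 (1.12), Tie1 (0.12), Flt1 (0.997), Ptprb (0.21), Adgrf5 (0.44), Hspg2 (0.62), Ptrf (0.12), Fabp4 (0.76), Aqp1 (0.69) and Rgs5 (0.024), without N604 for Acta2 (0.078), and without E591 for Sox18 (-0.51). The fewer libraries are part of these settings, and no further cause was tested. Counts under about 50 over 8 libraries limit Cspg4, Plvap, Cldn5, Eng and Egfl7.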
